A study of Mus musculus with 4 samples.

Results

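The 9 genes described here are factors of the hypoxia response and of vessel growth: the ligands Vegfa, Vegfb, Pgf and Adm, the oxygen-sensing genes Hif1a, Egln1 and Egln3, and the hypoxia-induced genes Bnip3 and Ndrg1. They were chosen by gene symbol, and all 9 were found once each among the 21885 genes of the count matrices. Their transcripts were followed in 4 Visium sections of mouse heart, in which barcoded spots capture the mRNA of the tissue above them, so that each spot reads a small region holding several cells. The animals carried a Collagen1a1-GFP transgene, in which collagen promoter activity drives a green fluorescent protein, and were between 8 and 12 weeks old. The first section came from a healthy heart (control, labelled female), 1 from a heart 3 days after myocardial infarction (3 dpi, labelled female) and 2 from hearts 5 days after it (5 dpi, 1 labelled female and 1 labelled male), the infarct being made by permanent ligation of the left anterior descending coronary artery. Each section stands for 1 heart, and spots of a section are not replicates.

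Cells sense oxygen through the prolyl hydroxylases of the Egln family, which use oxygen to mark the Hif1a protein for destruction. When oxygen is short the hydroxylases slow down, the protein accumulates and, paired with Arnt, switches on genes for glycolysis, for the clearing of mitochondria and for new vessels. Much of this control acts on the Hif1a protein and is not read by a transcript count. Cardiomyocytes are a known source of Vegfa and Vegfb in the heart.

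The methods drop spots with under 500 UMIs, under 250 genes or over 50% mitochondrial UMIs, after which 1146 control spots, 1741 spots at 3 dpi, and 1535 and 1423 spots of the female- and male-labelled 5 dpi sections remained. They held 3742105 to 9540940 UMIs of genes outside the mitochondrial genome, and mitochondrial UMIs, left out of these sums, made up 40.1% of all UMIs in the control and 13.3 to 21.4% in the infarcted sections. Levels are UMIs per 1000000 non-mitochondrial UMIs (CPM), with exact Poisson 95% intervals in parentheses that cover counting error only. The 12 cardiomyocyte genes that define the share used below made up 10.1% of these UMIs in the control, with 4.53% in the 3 dpi section, and 1.98% (labelled female) and 3.71% (labelled male) at 5 dpi. The 4 Y-linked genes gave 704 UMIs in the section labelled female at 5 dpi and 1 in the section labelled male, so the sex labels of these 2 sections do not go with their transcripts; the labels are used as names only, and both sections enter each result as 5 dpi.

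On the mouse assembly GRCm38.p6 (mm10, the build named in the submitters' notes) the ligand genes lie at chr17:46016993-46032377 (Vegfa), chr19:6982472-6987651 (Vegfb), chr12:85166637-85177785 (Pgf) and chr7:110627657-110629820 (Adm). The sensing genes lie at chr12:73901324-73947554 (Hif1a), chr8:124908587-124949254 (Egln1) and chr12:54178981-54203874 (Egln3), and the induced genes at chr7:138890836-138909506 (Bnip3) and chr15:66929318-66969641 (Ndrg1). Hif1a protein with its partner binds a short element whose core is written ACGTG or GCGTG. RefSeq promoter windows of 300 bases, 250 before and 50 after an annotated start, were at hand for 8 of the 9 members, in 10 windows (Ndrg1 had none). Read on both strands, ACGTG was found in 5 of the 10 windows and ACGTG or GCGTG in 8 of the 10, against 19.6% and 43.8% of the 32851 windows of all genes. Each of the 8 members had at least 1 window with either core. The stretches with ACGTG are shown for 3 genes that fell from muscle-rich to muscle-poor spots of the infarcted hearts (Bnip3, Egln1, Egln3) and for Hif1a, which rose; in Vegfa they stood in the window of a start downstream of the first and are not shown. The start used for Hif1a also lies inside the span given for that gene. Each stretch is written 5′ to 3′ on the strand of its gene and ends before the start, with capitals marking the letters of either core on either strand.
Bnip3, chr7:138909576-138909648, minus strand, bases 142 to 70 before the start: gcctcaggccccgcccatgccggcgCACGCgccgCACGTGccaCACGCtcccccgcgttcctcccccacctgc
Egln1, chr8:124949293-124949347, minus strand, bases 93 to 39 before the start: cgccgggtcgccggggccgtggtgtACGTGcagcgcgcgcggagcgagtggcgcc
Egln3, chr12:54204074-54204124, minus strand, bases 250 to 200 before the start: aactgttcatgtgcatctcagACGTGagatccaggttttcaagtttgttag
Hif1a, chr12:73907707-73907762, plus strand, bases 160 to 105 before the start: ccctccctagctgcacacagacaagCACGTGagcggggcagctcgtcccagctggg
Hif1a, chr12:73907772-73907826, plus strand, bases 95 to 41 before the start: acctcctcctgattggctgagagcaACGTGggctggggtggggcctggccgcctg
Bnip3 and Hif1a each hold the palindrome CACGTG, which reads ACGTG on both strands, and the Bnip3 stretch holds GCGTG on the reverse strand on either side of it. Such letters are a description of the sequence and do not show that a factor was bound in these hearts.

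In whole sections the members split into 3 groups. Vegfa, Vegfb, Egln1 and Bnip3 were lower in all 3 infarcted sections than in the control, Pgf, Hif1a and Ndrg1 were higher in all 3, and Adm and Egln3 had at least 1 section whose ratio to the control could not be told from 1 within counting error. With 1 control and 1 section at 3 dpi no test between time points was run, and the intervals do not hold the spread between hearts.

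Vegfa, the chief growth factor for endothelial cells, stood at 131 CPM (119.9 to 143) in the control, 68.1 CPM (62.6 to 73.9) at 3 dpi, 39.4 CPM (35.5 to 43.6) in the female-labelled section at 5 dpi and 52.8 CPM (48 to 58) in that labelled male. The control thus lay above all 3 infarcted sections, and 3 dpi above both at 5 dpi, without overlap of the intervals. Vegfb, a relative that binds the receptor Flt1 and is known for effects on coronary vessels and lipid use in muscle, had the same order at 347 CPM (328 to 366), 176 CPM (167 to 185), 96.5 CPM (90.4 to 103) and 138 CPM (130.4 to 147). On the log2 scale the sections lay -0.98, -1.85 and -1.33 from the control. Pgf, the placental growth factor, which also binds Flt1, was at 4.81 CPM (2.85 to 7.6) in the control and at 22.9 CPM (19.8 to 26.4), 21.8 CPM (18.9 to 25) and 25 CPM (21.7 to 28.7) after infarction. That is 4.77, 4.53 and 5.2 times the control, with 18 UMIs behind the control value, and the 3 infarcted sections did not differ beyond counting error. Adm, the vasodilator adrenomedullin, was sparse, with 36, 65, 75 and 89 UMIs, and its levels of 9.62, 7.76, 7.86 and 10.7 CPM had overlapping intervals.

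Hif1a, the oxygen-regulated subunit of the transcription factor, was at 32.9 CPM (27.3 to 39.2) in the control, 114 CPM (107 to 121) at 3 dpi, 129 CPM (122 to 137) in the female-labelled section at 5 dpi and 104 CPM (97.4 to 111) in that labelled male. These are 3.46, 3.93 and 3.17 times the control, and the level at 3 dpi lay between the 2 at 5 dpi. Egln1, the main hydroxylase that marks Hif1a protein, went the other way, from 229 CPM (214 to 245) to 101 CPM (94.3 to 108), 69.3 CPM (64.1 to 74.8) and 86.4 CPM (80.1 to 92.9). The control was 2.26, 3.30 and 2.65 times these levels. Egln3, a hydroxylase whose gene is itself induced by the pathway, was at 36.9 CPM (31 to 43.6), 30.7 CPM (27.1 to 34.7), 19 CPM (16.3 to 21.9) and 29.6 CPM (26 to 33.5). All 3 infarcted values lay below the control, but the interval of the log2 ratio included 0 at 3 dpi (-0.57 to 0.044), and only the section labelled female stood clear of the others.

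Bnip3, which marks mitochondria for removal under low oxygen, was at 157 CPM (144 to 170.1) in the control, 69.3 CPM (63.7 to 75.1) at 3 dpi, 64.8 CPM (59.8 to 70.1) in the female-labelled section at 5 dpi and 106 CPM (99 to 113) in that labelled male. The 5 dpi sections differed from each other by more than counting error, and the level at 3 dpi lay between them. Ndrg1, a stress gene induced by low oxygen in many tissues, was at 29.7 CPM (24.4 to 35.7), 39.9 CPM (35.7 to 44.4), 57.1 CPM (52.4 to 62.1) and 51.7 CPM (46.9 to 56.8), lowest in the control and highest in the 2 sections at 5 dpi. Cardiomyocyte transcripts were themselves most abundant in the control and least in the section labelled female, in the order of Vegfa, Vegfb and Egln1. In bulk values of this kind fewer cells of a type and less RNA per cell cannot be told apart. The ratios to the control also depend on the scale, since infarcted sections held more UMIs per spot. As UMIs per spot, Hif1a was 5.10, 7.49 and 5.68 times the control, Pgf 7.02, 8.63 and 9.31 times and Ndrg1 1.98, 3.67 and 3.12 times. The control was then 1.54, 1.73 and 1.48 times the infarcted sections for Egln1, 1.31, 1.75 and 1.39 times for Vegfa and 1.34, 1.89 and 1.40 times for Vegfb. Over all UMIs, mitochondrial ones included, Hif1a was 4.54, 5.70 and 4.54 times the control and the control 1.73, 2.28 and 1.85 times for Egln1. For Egln3 in the section labelled female the log2 ratio per spot was -0.030, with an interval that included 0 (against -0.96 as CPM). The direction of 3 genes changed with the scale. As UMIs per spot instead of CPM, Bnip3 and Egln3 in the section labelled male lay 0.27 and 0.52 above the control on the log2 scale, against -0.57 and -0.32 as CPM. Adm, whose CPM ratios were -0.31, -0.29 and 0.15 in the 3 infarcted sections, lay above the control per spot, at 0.25, 0.64 and 0.99, with intervals that excluded 0 in both 5 dpi sections.

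**Figure D1:**
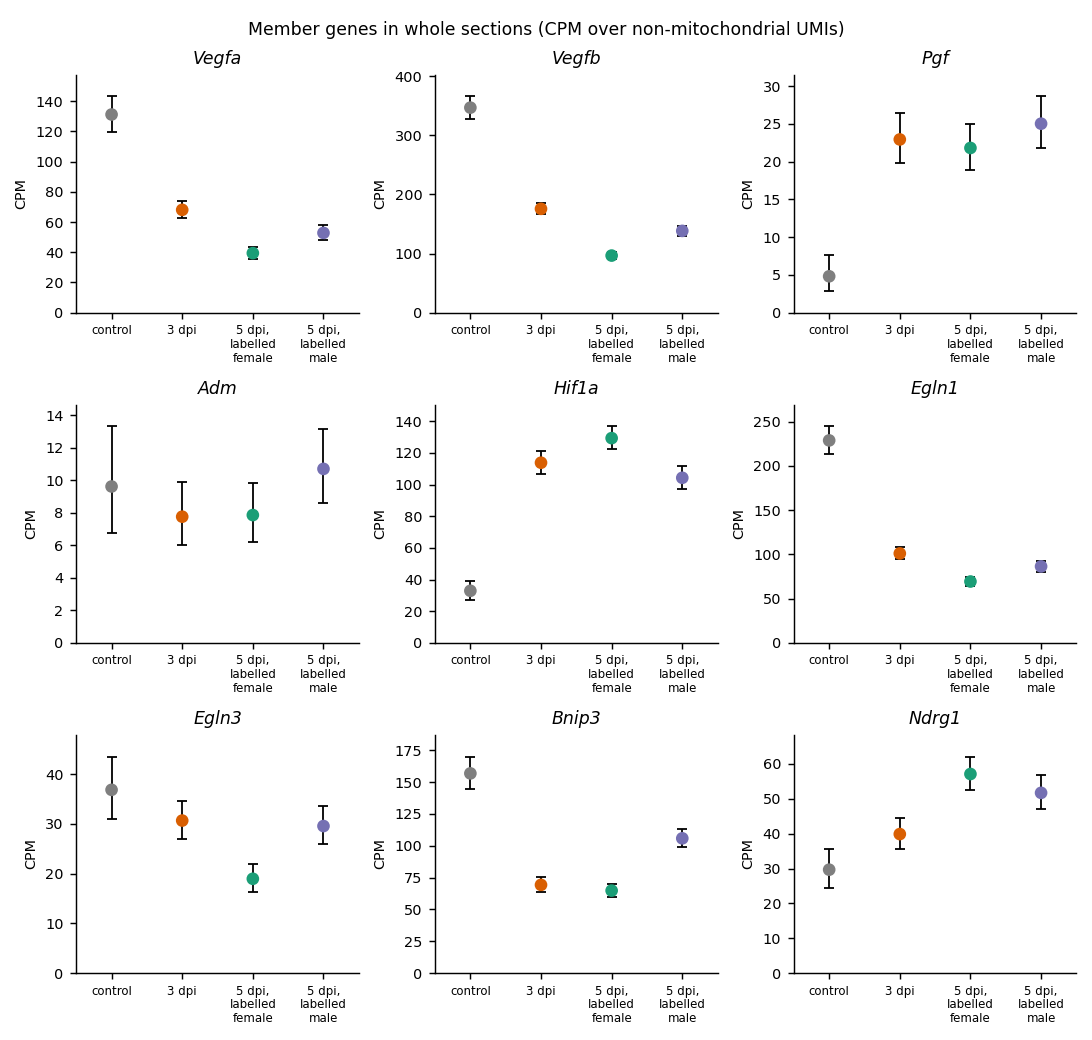
Level of each of the 9 genes (CPM over non-mitochondrial UMIs, vertical axis from 0) in the 4 sections, with exact Poisson 95% intervals of the UMI counts as bars. Vegfa, Vegfb, Egln1 and Bnip3 are highest in the control, Pgf, Hif1a and Ndrg1 are lowest there, and the intervals of Adm overlap in all 4 sections.

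Where in the infarcted hearts these transcripts lay was read from the share of cardiomyocyte UMIs in each spot. Spots were put into 4 classes by that share relative to the 90th percentile of their own section: muscle-poor (under 0.25), lower intermediate (0.25 to 0.5), upper intermediate (0.5 to 0.75) and muscle-rich (0.75 and over). The muscle-poor class held 516 spots at 3 dpi, 952 in the female-labelled and 591 in the male-labelled section at 5 dpi, and the muscle-rich class 497, 286 and 509; values in 3 sections are given in that order from here on. In the control 1099 of 1146 spots were muscle-rich and none muscle-poor. UMIs were summed by section and class and compared with edgeR's quasi-likelihood test with the section as a block, and p-values were adjusted over all 10521 genes tested. The fit scales the sums by TMM, whose factors averaged 0.20 on the log2 scale in muscle-poor and -0.22 in muscle-rich sums, so fitted differences between these classes lie below the ratio of the CPM values.

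Between muscle-poor and muscle-rich spots 8 of the 9 members changed. Vegfa, Vegfb, Egln1, Egln3 and Bnip3 fell (5 of 9, against 27.1% of all genes tested), Pgf, Hif1a and Ndrg1 rose (3 of 9, against 30.8%), and Adm did not pass the test. All 8 had the same direction in all 3 sections. Of the 10521 genes tested 6094 were called between these classes (5125 under DESeq2), so the share of members that changed says little by itself. The sizes and the course across the classes carry the description that follows.

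Vegfb had 374, 309.9 and 284 CPM in muscle-rich spots and 62.5, 45.4 and 46.8 CPM in muscle-poor spots. The groups of values were far apart, and the fitted difference was -3.08 (SE 0.13, adjusted p = 1.41e-13), larger in size than that of the other 8 members. Vegfa had 105, 113 and 86.2 CPM in muscle-rich spots, 56.4, 40.1 and 74.4 CPM in lower intermediate spots and 38.5, 21.4 and 22.3 CPM in muscle-poor spots, a difference of -2.33 (SE 0.18, adjusted p = 7.46e-10) from end to end. Pgf ran against both of its relatives, with 9.09, 10.5 and 8.75 CPM in muscle-rich and 41.7, 23.7 and 39.2 CPM in muscle-poor spots. It rose by 1.45 (SE 0.29, adjusted p = 2.97e-04), and the lowest muscle-poor level was in the section labelled female. Adm had 8.52, 15.8 and 7.87 CPM in muscle-rich and 9.64, 7.04 and 11.9 CPM in muscle-poor spots, on 15 to 50 UMIs a value. Its values overlapped, and the fitted -0.52 (SE 0.32, adjusted p = 0.177) has the sign of the CPM ratio in the section labelled female only.

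Among the sensing genes, Hif1a was at 145, 145 and 121 CPM in muscle-poor spots and at 64.2, 81.4 and 64.3 CPM in muscle-rich spots. Every muscle-poor value lay above every muscle-rich one, and the fitted difference was 0.56 (SE 0.15, adjusted p = 0.00359). Egln1 had the reverse course, with 57.5, 49.9 and 44.2 CPM against 174, 134 and 143 CPM, a difference of -2.0 (SE 0.14, adjusted p = 1.21e-10). The class with most Hif1a transcript was thus the one with least transcript of its main hydroxylase. Egln3 was at 15.5, 8.09 and 10.9 CPM in muscle-poor spots and 47.2, 44.6 and 40.7 CPM in muscle-rich spots and fell by 2.41 (SE 0.22, adjusted p = 8.99e-09).

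Of the induced genes, Bnip3 was at 40.1, 34.8 and 43.2 CPM in muscle-poor and 100.0, 129 and 159 CPM in muscle-rich spots, and the difference was -2.12 (SE 0.18, adjusted p = 3.01e-09). Ndrg1 did the opposite, with 49.7, 62.5 and 67.5 CPM against 30.1, 35.9 and 24.9 CPM and a rise of 0.57 (SE 0.16, adjusted p = 0.004). Both genes are known targets of the pathway, and they moved apart in all 3 sections. The call of Ndrg1 rests on the section labelled male: without it the difference was 0.35 (adjusted p = 0.125). The same direction was found for all 8 genes with scaling by library size alone, which moves the median of all genes tested from 0.089 to 0.52.

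Other cells differed between the same classes. From muscle-rich to muscle-poor spots the summed level of the 7 fibroblast markers went from a range over sections of 2795 to 4938 CPM up to 13841 to 24913 CPM. The 8 macrophage markers were at 1224 to 1696 CPM in muscle-rich and 11486 to 13773 CPM in muscle-poor spots, and the 6 neutrophil markers at 24.5 to 81.4 and 247 to 350.3 CPM. The 8 markers of endothelial cells, which carry the receptors for these ligands, were at 1837, 2585 and 3484 CPM in muscle-rich spots. In muscle-poor spots they were at 1761, 1085 and 1465 CPM, so their sum hardly differed at 3 dpi. No fibroblast, macrophage or endothelial marker was at 0 in any class of the infarcted sections, while 2 or 3 of the 6 neutrophil markers were at 0 in the muscle-rich class and at most 1 in the muscle-poor class. All 5 tested erythroid markers fell as well. The median depth was 6106 to 7024 non-mitochondrial UMIs per muscle-poor spot and 3166 to 4234 per muscle-rich spot, and mitochondrial UMIs were 2.07 to 5.36% and 28.7 to 40.8% of the total. The part of cell mixture and depth in the differences of the members was not tested.

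**Figure D2:**
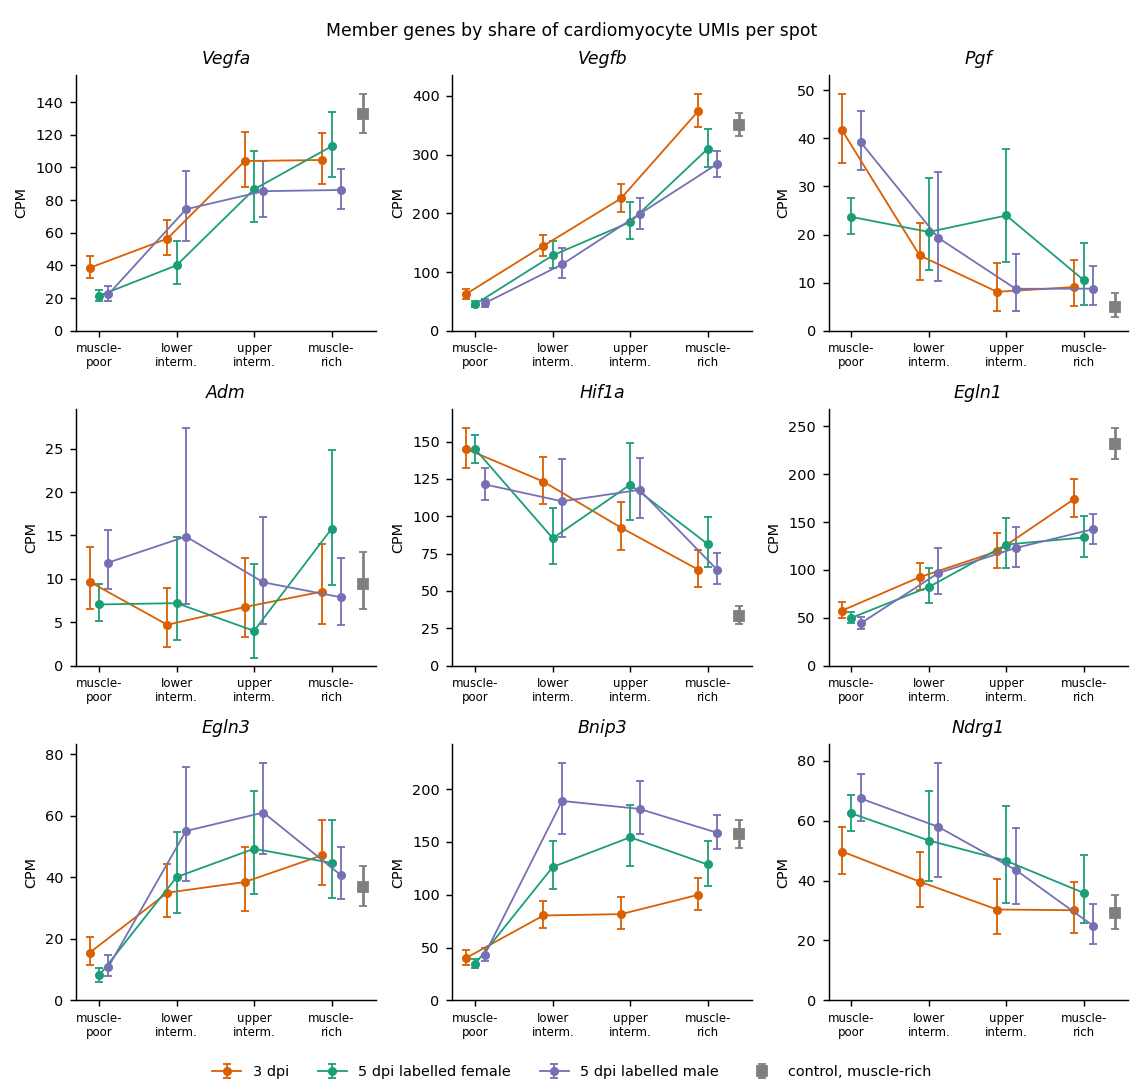
Level of each gene (CPM, vertical axis from 0) in the 4 classes of spots, from muscle-poor to muscle-rich, with 1 line for each infarcted section and exact Poisson 95% intervals as bars; the grey square is the muscle-rich class of the control. Vegfb and Egln1 climb through all classes, Egln3 and Bnip3 step up between the muscle-poor and lower intermediate classes, and Hif1a and Ndrg1 are highest in muscle-poor spots of each section, as Pgf is in 2 of the 3.

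The 5 genes that fell did so at different points between muscle and infarct. From muscle-rich to upper intermediate spots Vegfb and Egln1 fell (2 of 9, against 6.11% of all genes lower) and no member rose (0 of 9, against 3.67%). Vegfb went from 374, 309.9 and 284 CPM to 225, 185 and 199 CPM, a difference of -0.85 (SE 0.12, adjusted p = 1.52e-04). The fall of Egln1 at this step, -0.49 (SE 0.14, adjusted p = 0.0304), was not called when any 1 of the 3 sections was left out (adjusted p = 0.0857 to 0.295), nor without the section block (adjusted p = 0.129) or with library size alone (-0.29 (adjusted p = 0.177)), and is weakly held. Vegfa was at 104, 86.6 and 85.4 CPM in the upper intermediate class, a fitted -0.32 (SE 0.18, adjusted p = 0.317) from muscle-rich spots. Hif1a was at 92.4, 121 and 118 CPM there, a fitted 0.47 (SE 0.16, adjusted p = 0.078), and it was called under 4 of the alternative settings: library size alone, 0.66 (adjusted p = 0.0167), the same without the cardiomyocyte genes, 0.61 (adjusted p = 0.0269), no filter on low counts, 0.49 (adjusted p = 0.0392), and all spots under tissue, 0.54 (adjusted p = 0.0388).

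From upper to lower intermediate spots Vegfa, Vegfb and Egln1 fell (3 of 9, against 3.43% lower) and no member rose (0 of 9, against 1.93%). The differences were -0.83 (SE 0.20, adjusted p = 0.018) for Vegfa, -0.74 (SE 0.13, adjusted p = 0.00167) for Vegfb and -0.54 (SE 0.15, adjusted p = 0.0429) for Egln1. Vegfb kept the call without each of the 3 sections, but with class limits of 0.2, 0.4 and 0.6 none of the 3 genes was called (Vegfb -0.47 (adjusted p = 0.0659)). Without the section block none of the 3 was called either, and with library size alone only Vegfb was. Of the other two, Vegfa lost it without the 3 dpi section, at -0.71 (adjusted p = 0.101), and without that labelled female, at -0.71 (adjusted p = 0.202), and Egln1 lost it without any 1 of the 3 (-0.55 to -0.49, adjusted p = 0.113 to 0.271). Egln3 was at 38.5, 49.3 and 61 CPM and 35, 40.1 and 55 CPM in the upper and lower intermediate classes, and Bnip3 at 81.6, 154 and 181 CPM and 80.4, 126 and 189 CPM. Neither gene passed the test at this step or the one before it.

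The last step, from lower intermediate to muscle-poor spots, took all 5 down (5 of 9, against 14.8% lower), while none of the others rose past the threshold (0 of 9, against 11.5%). Egln3 went from 35, 40.1 and 55 CPM to 15.5, 8.09 and 10.9 CPM, a difference of -2.06 (SE 0.24, adjusted p = 1.28e-06), and Bnip3 from 80.4, 126 and 189 CPM to 40.1, 34.8 and 43.2 CPM, a difference of -1.83 (SE 0.18, adjusted p = 2.32e-07). Most of the end-to-end difference of these 2 genes was therefore at the edge of the muscle-poor class. For Vegfa, Vegfb and Egln1 this step was -1.18, -1.48 and -0.98 (adjusted p = 1.48e-04, 4.59e-08 and 3.24e-05). Pgf was higher by 0.77 (SE 0.28, adjusted p = 0.0515), short of the threshold, and passed it in the same direction under 5 of the alternative settings.

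Border cardiomyocyte genes, which mark muscle next to an infarct, were high in the intermediate classes. The 8 markers summed to 37706 to 58178 CPM in lower and 29692 to 47083 CPM in upper intermediate spots, against 10008 to 20736 CPM in muscle-rich and 9371 to 14194 CPM in muscle-poor spots. All 8 fell at the last step, and 4 rose from muscle-rich to upper intermediate spots. At 3 dpi Bnip3 was at 80.4 CPM in lower intermediate and 100.0 CPM in muscle-rich spots. In the 5 dpi section labelled female these were 126 and 129 CPM, and in that labelled male 189 and 159 CPM. The lower intermediate value was thus below the muscle-rich one at 3 dpi, close to it in the section labelled female and above it in that labelled male. Egln3 was at 35, 40.1 and 55 CPM in lower intermediate and 47.2, 44.6 and 40.7 CPM in muscle-rich spots, so the lower intermediate value was the lower one at 3 dpi and in the section labelled female and the higher one in that labelled male. With 1 section at 3 dpi the difference between times was not tested, nor was the part of the border cells in it.

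The same genes were then followed by distance. Spots with a share under 0.5 of the 90th percentile, in patches of at least 10, were taken as infarct and divided by steps on the spot grid from its edge into rim (1 and 2), middle (3 and 4) and core (over 4), and the spots outside into border zone 2 (up to 2 steps away, next to the infarct), border zone 1 (3 and 4 steps) and remote zone (over 4). These zones use the share of the classes above and are another cut of the same spots, not separate evidence. The core held 342, 813 and 533 spots, and 9702 genes were tested.

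From the remote zone to border zone 2, Vegfb and Egln1 fell (2 of 9, against 5.16% of all genes lower), and no member rose (0 of 9, against 3.78%). Vegfb went from 379, 319.99 and 269 CPM to 237, 174 and 202 CPM, a difference of -0.82 (SE 0.14, adjusted p = 2.97e-04). Egln1 differed by -0.52 (SE 0.16, adjusted p = 0.0398), a call lost without any 1 section (adjusted p = 0.0714 to 0.366), without the section block (adjusted p = 0.176) and with library size alone (-0.34 (adjusted p = 0.184)). Hif1a was at 95.7, 120.2 and 111 CPM in border zone 2 and 61, 72.8 and 76.5 CPM in the remote zone, higher in 3 of 3 sections. Its fitted difference of 0.42 (SE 0.17, adjusted p = 0.156) missed the threshold, and with library size alone it was called, at 0.60 (adjusted p = 0.0332). Vegfa was called lower with a low limit of 0.4, at -0.63 (adjusted p = 0.0176). Ndrg1 was at 23.5, 49.8 and 58.4 CPM in border zone 2 and 27.9, 29.9 and 23 CPM in the remote zone, higher next to the infarct in both 5 dpi sections. In border zone 1 it was at 48.5, 45.5 and 45.8 CPM, above the remote zone in all 3 sections. The difference of border zone 2, 0.45 (SE 0.25, adjusted p = 0.326), became 0.92 (adjusted p = 0.0259) without the 3 dpi section. Bnip3 was at 92.5, 154 and 208 CPM in border zone 2 and 81.4, 174 and 229 CPM in border zone 1, against 95.6, 111 and 147 CPM in the remote zone. In both 5 dpi sections the border zones lay above the remote zone, but over 3 sections the difference of border zone 2 was 0.15 (SE 0.22, adjusted p = 0.794).

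Across the edge of the infarct, from border zone 2 to the rim, Vegfa, Vegfb and Egln1 fell (3 of 9, against 6.98% lower) and no member rose (0 of 9, against 4.54%). With all spots under tissue 1 member was called higher in the rim. Vegfa went from 101, 82.1 and 79.8 CPM to 51.2, 37.1 and 55.2 CPM, a difference of -1.05 (SE 0.21, adjusted p = 9.70e-04), and Vegfb from 237, 174 and 202 CPM to 113, 107 and 105 CPM, a difference of -1.04 (SE 0.15, adjusted p = 3.50e-05). The difference of Egln1 was -0.75 (SE 0.17, adjusted p = 0.00452), and without the section labelled female -0.58 (adjusted p = 0.123). Egln3 and Bnip3 differed by -0.57 and -0.56 here (adjusted p = 0.17 and 0.123), and both were called, at -1.01 and -1.15, where the infarct was drawn more narrowly with a limit of 0.4. Hif1a was at 95.7, 120.2 and 111 CPM in border zone 2 and 112, 83.4 and 91.3 CPM in the rim, with no common direction.

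From rim to core 5 members fell further (5 of 9, against 13.4% lower) and Hif1a rose (1 of 9, against 7.45%). Egln3 went from 31.1, 24.5 and 45.6 CPM to 19.6, 8.85 and 13.7 CPM, a difference of -1.45 (SE 0.25, adjusted p = 9.43e-05), and Bnip3 from 65.8, 98.8 and 183 CPM to 52.9, 37.1 and 44.4 CPM, a difference of -1.42 (SE 0.23, adjusted p = 3.99e-05). Vegfb fell by 1.18 (SE 0.15, adjusted p = 1.65e-06). Hif1a was at 167, 152 and 125 CPM in the core and 112, 83.4 and 91.3 CPM in the rim, a difference of 0.47 (SE 0.16, adjusted p = 0.0325). Without either of the 5 dpi sections that call was lost, at 0.32 (adjusted p = 0.421) without the section labelled female and 0.55 (adjusted p = 0.0568) without that labelled male, and also under DESeq2, at 0.46 (adjusted p = 0.0525), and without the section block, at 0.48 (adjusted p = 0.0813). With the low limit of 0.4 Hif1a was at 0.38 (adjusted p = 0.0882) and Vegfa at -0.23 (adjusted p = 0.514). The falls of Vegfa, -0.73 (SE 0.20, adjusted p = 0.0089), and Egln1, -0.74 (SE 0.16, adjusted p = 0.00154), also depended on sections: Vegfa was at -0.66 (adjusted p = 0.0849) without that labelled female and -0.58 (adjusted p = 0.152) without that labelled male, and Egln1 at -0.60 (adjusted p = 0.0569) without that labelled male.

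Within the infarct Vegfa was lowest in the middle, at 29.2, 13.7 and 18.9 CPM on 34, 9 and 7 UMIs, against 48, 21.9 and 26.9 CPM in the core; no test was run on this pair, and the intervals overlapped in all 3 sections. Pgf was at 44.2, 24.3 and 38.5 CPM in the core and 22.1, 19.9 and 17.1 CPM in the rim, higher in the core in 3 of 3 sections, with a fitted 0.60 (SE 0.26, adjusted p = 0.109); it was called with library size alone and without the filter on low counts. Ndrg1 had similar values at both ends of the infarct, 49.6, 58.6 and 68.2 CPM in the core and 40.2, 69.8 and 51.3 CPM in the rim (difference -0.019, SE 0.19, adjusted p = 0.972). Adm had 1 to 48 UMIs a zone and no order that held across the sections.

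**Figure D3:**
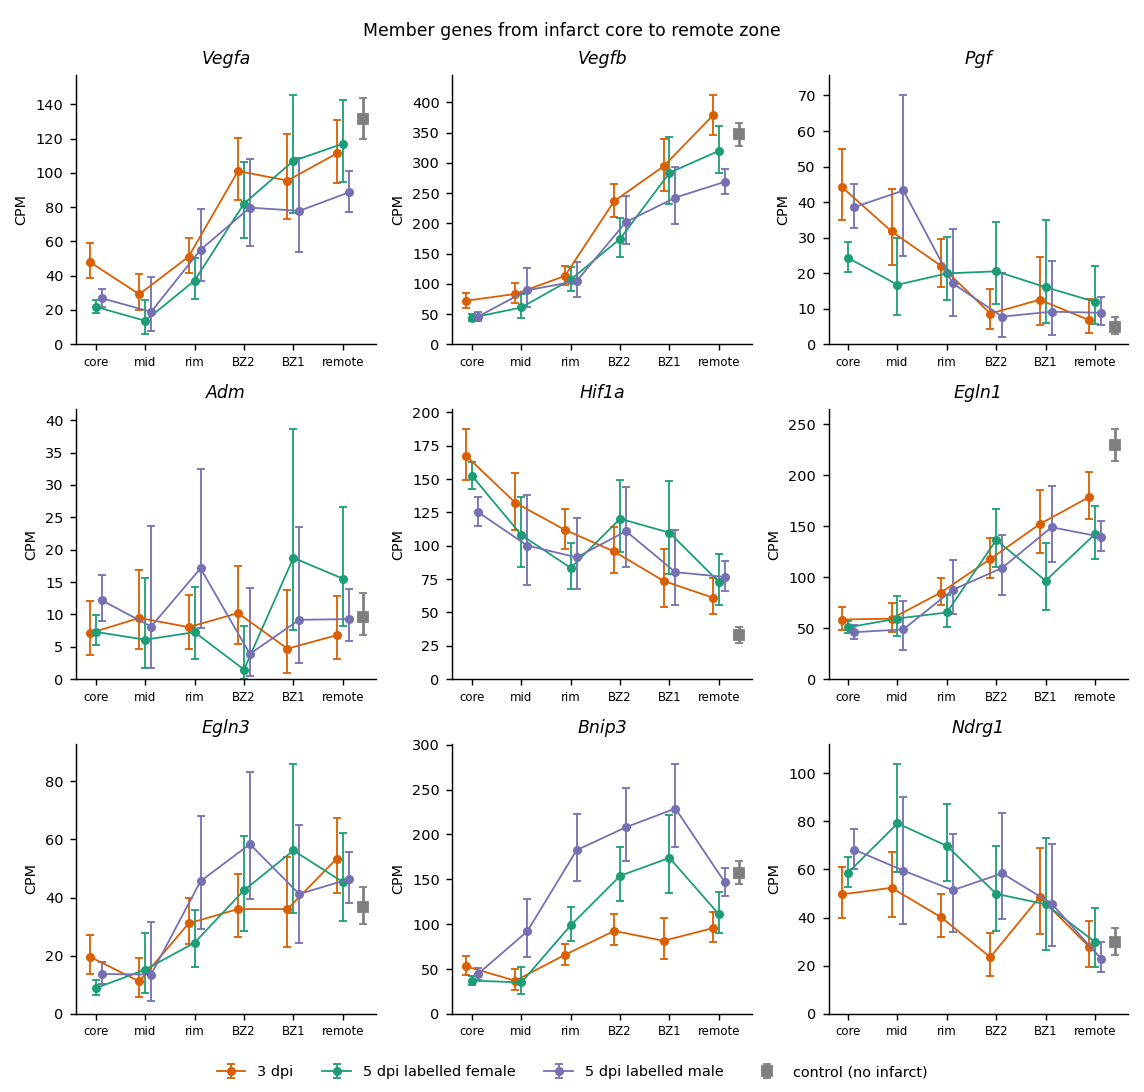
Level of each gene (CPM, vertical axis from 0) from the infarct core through the middle (mid) and rim to border zone 2 (BZ2), border zone 1 (BZ1) and the remote zone, with 1 line for each infarcted section, exact Poisson 95% intervals as bars, and the control, which has no infarct, as a grey square. Vegfa drops between border zone 2 and the rim, Bnip3 has its highest values in the border zones of the 5 dpi sections, and Hif1a is highest in the core of each section.

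**Figure D4:**
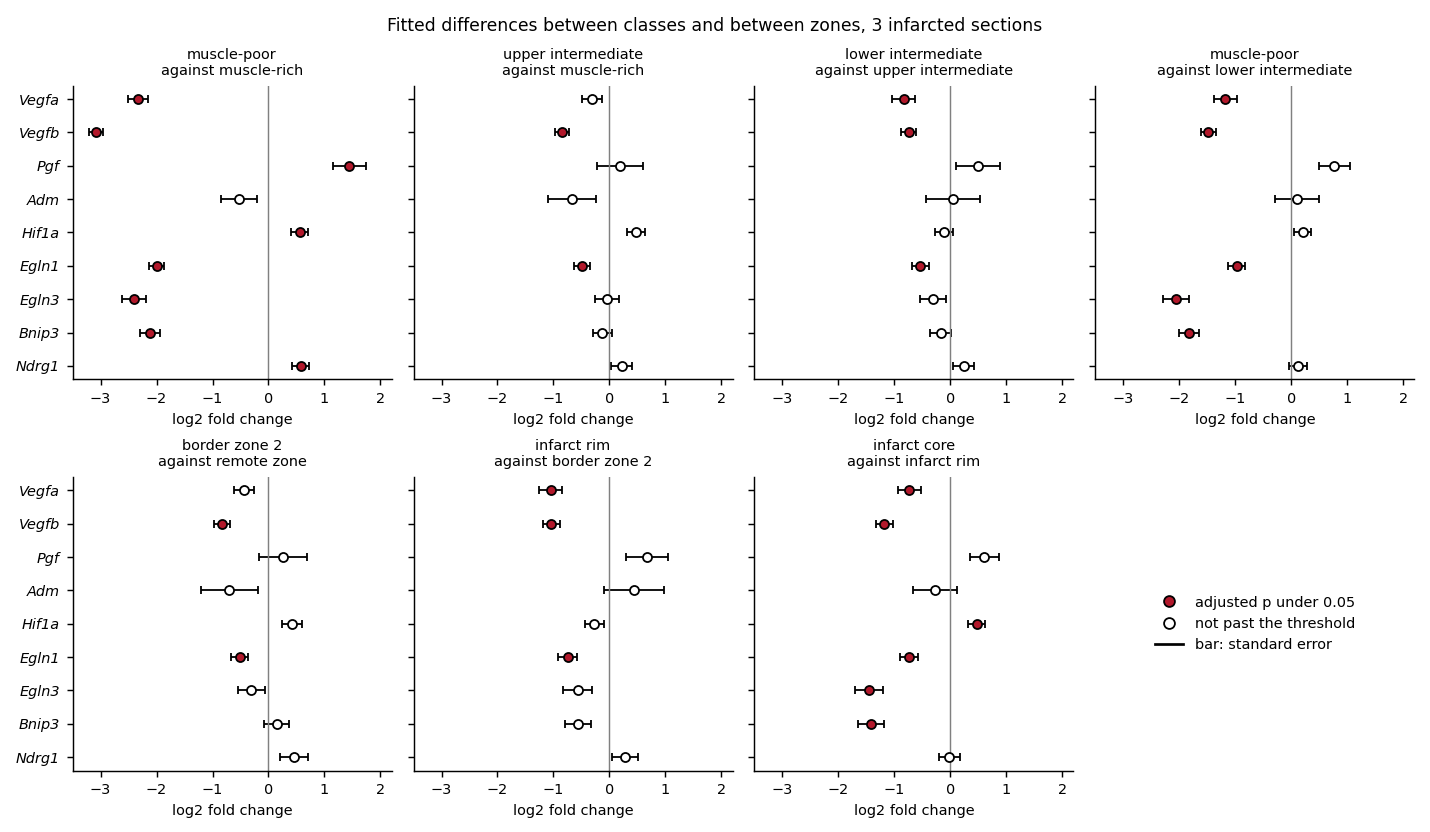
Fitted log2 fold changes of the 9 genes between classes (upper row) and between zones (lower row) over the 3 infarcted sections, with standard errors as bars; filled points passed an adjusted p of 0.05 in edgeR's test and open points did not. Vegfb is filled on the lower side in all 7 comparisons, while Egln3 and Bnip3 are filled only where the muscle-poor class or the infarct core is one side.

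Muscle of the infarcted hearts was set against the control by the muscle-rich class, whose cardiomyocyte share was 10.2% in the control and 8.47 to 9.84% in the infarcted sections. The class is set by share and not by distance: at 3 dpi and in the section labelled female it held more spots than the remote zone (497 against 380 and 286 against 200), so part of it lay nearer the infarct. Ratios to the single control section carry exact binomial 95% intervals for counting error only, and no test between hearts was run. Hif1a was at 33.2 CPM in control muscle and 64.2, 81.4 and 64.3 CPM after infarction. The log2 ratios of 0.95 (0.57 to 1.33), 1.29 (0.89 to 1.70) and 0.95 (0.60 to 1.31) were all above 0, so the higher level of Hif1a was present in muscle-rich spots too. Egln1 was at 232 CPM in control muscle and 174, 134 and 143 CPM after infarction, with ratios of -0.41 (-0.60 to -0.22), -0.79 (-1.05 to -0.54) and -0.70 (-0.89 to -0.51). Egln1 was thus lower in all 3 sections also in muscle-rich spots. The limit of that class follows each section's own 90th percentile of the share. That percentile was 11.4% in the control and 8.19 to 10.5% after infarction. Limits taken from the control were not used for this comparison, and the part of the lower share in it was not tested.

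Vegfa in muscle-rich spots was 133 CPM in the control against 105, 113 and 86.2 CPM, with ratios of -0.35 (-0.60 to -0.097), -0.23 (-0.53 to 0.049) and -0.62 (-0.87 to -0.38). The interval included 0 only in the section labelled female. Vegfb was 350.3 CPM against 374, 309.9 and 284 CPM, with ratios of 0.096 (-0.042 to 0.23), -0.18 (-0.35 to -0.0057) and -0.30 (-0.44 to -0.17). Each of these ratios was smaller in size than that of the whole section, where Vegfa stood at -0.95, -1.74 and -1.31 and Vegfb at -0.98, -1.85 and -1.33. Bnip3 lay below control muscle at 3 dpi, -0.65 (-0.91 to -0.41), and in the section labelled female, -0.29 (-0.56 to -0.027), while the interval included 0 in that labelled male, 0.012 (-0.18 to 0.20). The ratios of Egln3, Adm, Pgf and Ndrg1 had intervals that included 0 in all 3 sections; for Pgf they ran from -0.20 to 2.21, since 12 to 20 UMIs stood behind each value. Muscle-rich spots still held more fibroblast transcripts after infarction, 2795 to 4938 CPM in sum against 1047 CPM in the control, and more macrophage transcripts, 1224 to 1696 against 749 CPM. The border cardiomyocyte markers were at 10008 to 20736 against 3134 CPM in the same spots, and the erythroid markers at 6229 to 27496 against 7650.4 CPM. The part of these cells in the differences from control muscle was not tested. Muscle-rich ratios too depend on the scale. As UMIs per spot, a setting chosen after seeing the data, the log2 ratios of Vegfb were 0.20 (0.065 to 0.34), 0.10 (-0.070 to 0.27) and 0.15 (0.0077 to 0.28), so both 5 dpi ratios changed sign, with an interval that included 0 in the section labelled female. The intervals of Vegfa then included 0 in all 3 sections, Bnip3 in the section labelled male lay above control muscle, at 0.46 (0.27 to 0.65), and Egln3 did in all 3, at 0.46 (0.051 to 0.87), 0.56 (0.064 to 1.04) and 0.59 (0.20 to 0.99). Pgf in both 5 dpi sections and Adm and Ndrg1 in that labelled female also had intervals above 0. Hif1a stayed above control muscle, at 1.06 (0.67 to 1.44), 1.57 (1.17 to 1.98) and 1.40 (1.05 to 1.76), and Egln1 below it, at -0.30 (-0.50 to -0.11), -0.51 (-0.77 to -0.26) and -0.25 (-0.44 to -0.065).

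Other genes of the pathway were described from 4 lists. Of 12 further parts of the oxygen-sensing machinery 10 were tested, and between muscle-poor and muscle-rich spots 4 fell and 0 rose (median log2 fold change -0.31, against 0.089 over all genes tested, of which 27.1% fell and 30.8% rose). Epas1, a sister of Hif1a, fell by 1.07 (SE 0.12, adjusted p = 2.93e-07), from 147 CPM to 93.9 CPM, while Hif1a rose across the same classes. Cul2, the scaffold of the ligase that takes up hydroxylated HIF, fell by 0.92 (SE 0.19, adjusted p = 3.86e-04). The other two called, its adaptors Elob and Eloc, were at 868 against 876 CPM and 136 against 129.7 CPM in muscle-poor and muscle-rich spots, so their fitted -0.44 and -0.35 rest on the TMM scaling, and with them the count of 4.

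Of 39 known targets of the pathway 37 were tested, 13 rose and 11 fell (median 0.18). Both counts lie near the shares over all genes, 30.8% higher and 27.1% lower. Among those that rose most from muscle-rich to muscle-poor spots were Hmox1, which breaks down heme (644 against 24.6 CPM, 4.28 (SE 0.17, adjusted p = 1.12e-13)), Lox, a collagen cross-linking enzyme (571 against 52.2 CPM), and the lactate exporter Slc16a3 (58.5 against 8.79 CPM). The fitted rises of Lox and Slc16a3 were 3.14 and 2.38. Those that fell most were the transferrin receptor Tfrc (13.6 against 82.9 CPM), the hexokinase Hk2 (19.5 against 82.1 CPM), the pyruvate dehydrogenase kinase Pdk1 (17.1 against 44.7 CPM) and the aldolase Aldoa (1166 against 3011 CPM). Hmox1, Lox and Slc16a3 thus moved in the direction of Pgf, Hif1a and Ndrg1, and Hk2, Pdk1 and Aldoa in that of Bnip3 and Egln3. From muscle-rich to upper intermediate spots 5 of the 37 rose and 0 fell, against 3.67% and 6.11% of all genes, Lox, Slc16a3 and the enolase Eno1 among the former (0.67 (SE 0.12, adjusted p = 9.00e-04) for Eno1). At the last step, from lower intermediate to muscle-poor spots, 11 fell and 5 rose, against 14.8% and 11.5% of all genes (median -0.20).

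Of 21 other ligands 16 were tested, 7 rose and 3 fell toward the muscle-poor class, against 30.8% and 27.1% of all genes (median 0.45). Thbs1, an inhibitor of vessel growth, rose from 27.3 CPM to 313 CPM, a difference of 3.09 (SE 0.17, adjusted p = 6.19e-12), and Ccn1, a matrix-bound factor, rose by 1.42. Fgf1 and the vessel-stabilising ligand Angpt1 fell (log2 fold changes -2.73 and -2.61), as Vegfa and Vegfb did. Angpt1 was already lower in upper intermediate than in muscle-rich spots, at 6.78 against 22.8 CPM (-1.83 (SE 0.39, adjusted p = 0.00415)).

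Of 17 receptors 16 were tested, 8 fell and 2 rose, against 27.1% and 30.8% of all genes (median -0.48). Kdr, the main signalling receptor for Vegfa, was at 52 against 119.5 CPM in muscle-poor and muscle-rich spots, a difference of -1.67 (SE 0.16, adjusted p = 2.35e-08), and the co-receptor Nrp1 fell by 1.77. Ackr3, a scavenging receptor, and Ramp1, a partner of calcitonin-family receptors, fell (log2 fold changes -2.04 and -1.15). Nrp2, a co-receptor known from lymphatic vessels, and Fgfr1 rose by 0.56 and 0.87. The ligand Vegfa and its receptor Kdr were thus both lower in the infarct than in muscle. The 8 endothelial markers had a median log2 fold change of -0.41 in the same comparison, and 4 of them fell. TMM factors averaged 0.20 on the log2 scale in muscle-poor and -0.22 in muscle-rich sums, so a marker with equal CPM lies below 0 in the fit. At 3 dpi the summed level of these markers was 1761 against 1837 CPM.

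**Figure D5:**
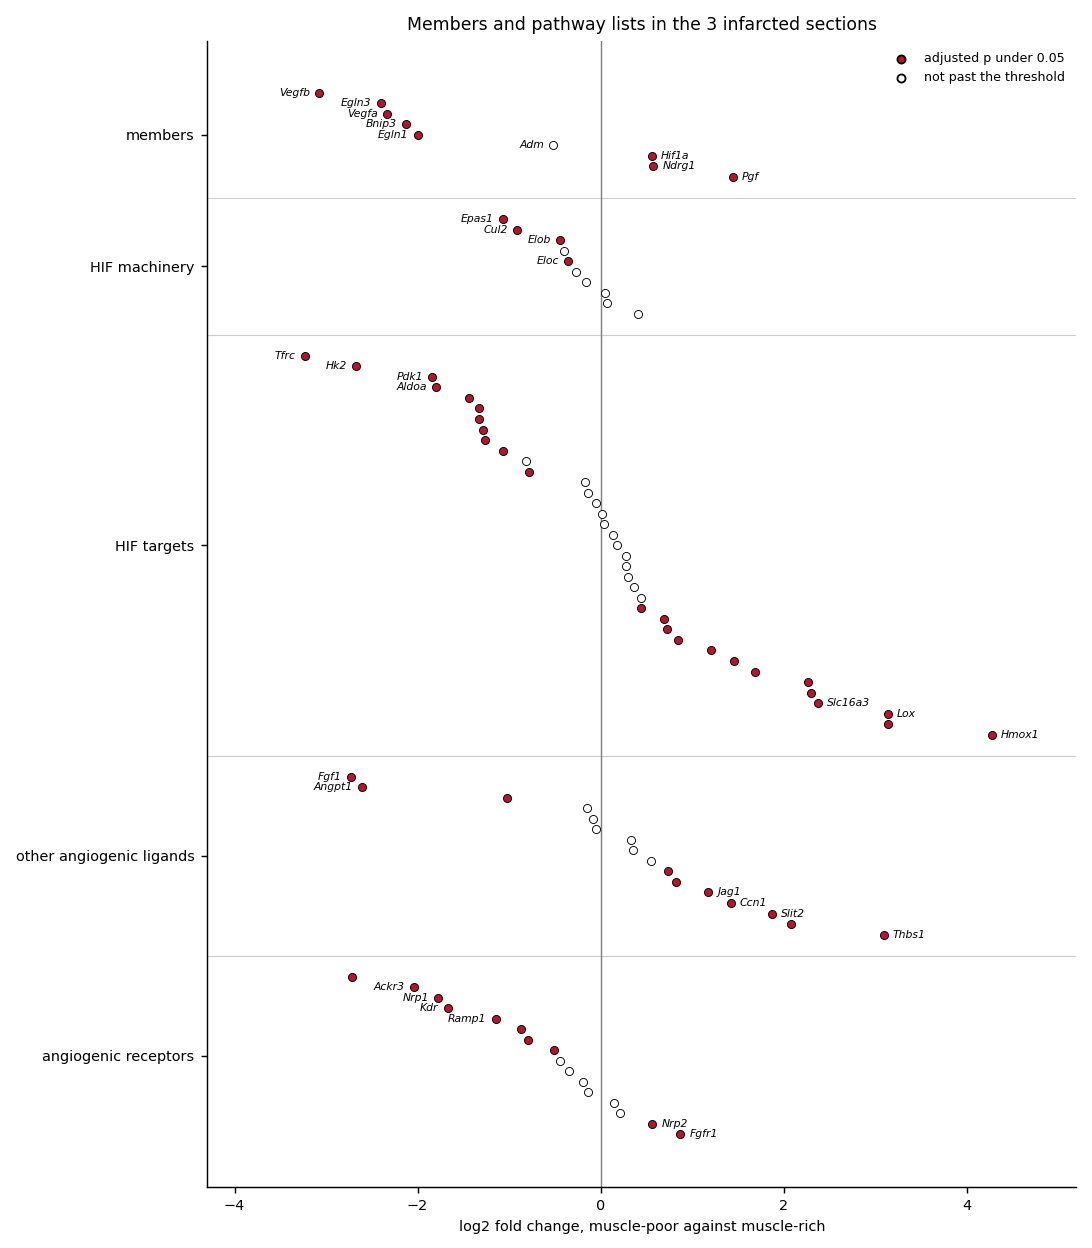
Fitted log2 fold change, muscle-poor against muscle-rich, of the 9 members and of the tested genes of 4 pathway lists, sorted within each list; filled points passed an adjusted p of 0.05 and named points are the members and the called genes chosen by size. Known HIF targets spread from Tfrc at -3.23 to Hmox1 at 4.28, and Epas1, at -1.07, lies on the other side of 0 from Hif1a.

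How alike the members were was described by Pearson's r of log2(CPM + 1) over the 12 class sums (4 classes in each of 3 sections). The sums of 1 section share a library, and all follow the muscle share, so no p is given. Vegfb and Egln1 were most alike (r = 0.98), followed by Vegfa with Egln1 (0.95) and Vegfa with Vegfb (0.94). Pgf and Ndrg1 were alike at 0.81 and ran against Vegfb at -0.86 and -0.86. Hif1a ran against Egln1 at -0.73, and Adm was near 0 with every other member, between -0.15 and 0.17.

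The search for like genes took 2780 genes with a mean of at least 50 CPM. The members and the 12 cardiomyocyte genes that define the share were left out of it. The genes most like Vegfb were Atp5b, Ndufa9 and Uqcrc1 (r = 0.996 to 0.997), parts of the mitochondrial respiratory chain and ATP synthase. Egln1 was closest to Ndufv1, Txlnb and Atp5b (r = 0.988 to 0.989), of which Atp5b is shared with Vegfb. Vegfa was closest to Ecsit, Coro6 and Pdha1 (r = 0.967 to 0.975), Pdha1 being a subunit of pyruvate dehydrogenase. Bnip3 was closest to Gapdh, Pfkl and Cystm1 (r = 0.946 to 0.961), the first 2 being enzymes of glycolysis, and Egln3 to Acta1, Ppp1r3c and Nol3 (r = 0.980 to 0.980), Acta1 being the skeletal muscle actin. Genes most like Ndrg1 were Txndc15, Olfml2b and Ecm1 (r = 0.962 to 0.964), those most like Pgf were Map4k4, Ccnl2 and Gnai2 (r = 0.939 to 0.943), and those most like Hif1a were Ctnnb1, Glud1 and Hmgn1 (r = 0.920 to 0.934). Adm had no close likeness, with Mat2a, Paip2 and Spop at 0.676 to 0.781.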

How the data were processed

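UMI counts per gene and spot were deposited by the authors for 4 Visium sections. They mapped the reads with Space Ranger 1.3.1 to an Ensembl-based mouse reference and selected spots under the tissue by hand. The submitters' notes give the build as mm10, while the paper's methods name a different build. Positions and promoter letters given here are on GRCm38.p6 and were not joined to the counts by position. The deposited counts are not normalized. From them, spots were filtered as in the methods, and UMIs of the 9 members and of the other genes were summed by section, class and zone over 3742105 to 9540940 non-mitochondrial UMIs a section. Members and lists were chosen with earlier results of these data known. All 9 members passed the filter on low counts in each fit.

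The class and zone sums after infarction were tested in edgeR 4.0.16 in R 4.3.3 (filterByExpr, TMM, quasi-likelihood test, section as a block, Benjamini-Hochberg adjustment over all genes, threshold 0.05). SE is the log2 fold change divided by the root of the F statistic. With 1 section per heart and the section as a block, p-values set a difference between classes or zones against its variation among 3 sections. The sections cover 2 time points, and the variation is estimated over all classes or zones of a fit. Differences in level between sections are taken up by the block and are not measured. Whole sections got exact intervals and no test. The fit was tested on simulated data with 200 genes changed, in the muscle-poor class alone. It recovered 91.5% of them, and 3.68% of its calls were false. The real classes differ in far more genes (6094 called), so the trial does not show how well calls or scaling hold there. Of the pathway lists, up to 4 called genes per direction with the greatest change and at least 20 CPM in a class were named, except 1 gene that is not reported here. Alternatives were DESeq2 1.42.0, other scaling, no filter, no block, all spots under tissue, other class and zone limits, and each section left out. Promoter windows came from RefSeq on GRCm38.p6.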

Additional observations from a re-analysis of the deposited data

Results flagged for a closer look

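In 10 of 63 pairs of a member and a comparison, both 5 dpi sections moved one way and the 3 dpi section the other way. The values are log2 ratios of CPM, with the section labelled female first at 5 dpi. With 1 section at 3 dpi, none of these differences between time points was tested. In other pairs 1 of the 5 dpi sections was the odd one, as for Pgf in the rim against border zone 2 (1.36 at 3 dpi, -0.042 and 1.14 at 5 dpi). For Ndrg1 in border zone 2 against the remote zone the ratios were -0.24 at 3 dpi and 0.74 and 1.35 at 5 dpi, a gap between the mean at 5 dpi and 3 dpi of 1.29. For Bnip3 there they were -0.047 at 3 dpi and 0.47 and 0.51 at 5 dpi, a gap between the mean at 5 dpi and 3 dpi of 0.54, and in upper intermediate against muscle-rich spots -0.29 at 3 dpi and 0.26 and 0.19 at 5 dpi, a gap between the mean at 5 dpi and 3 dpi of 0.52. For Egln3 in upper intermediate against muscle-rich spots they were -0.29 at 3 dpi and 0.14 and 0.58 at 5 dpi, a gap between the mean at 5 dpi and 3 dpi of 0.66.

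For Hif1a in lower against upper intermediate spots the ratios were 0.42 at 3 dpi and -0.51 and -0.097 at 5 dpi, a gap between the mean at 5 dpi and 3 dpi of -0.72, and in the rim against border zone 2 0.23 at 3 dpi and -0.53 and -0.28 at 5 dpi, a gap between the mean at 5 dpi and 3 dpi of -0.63. For Adm in lower against upper intermediate spots they were -0.52 at 3 dpi and 0.85 and 0.63 at 5 dpi, a gap between the mean at 5 dpi and 3 dpi of 1.26. In muscle-poor against lower intermediate spots Adm had 1.04 at 3 dpi and -0.030 and -0.32 at 5 dpi, a gap between the mean at 5 dpi and 3 dpi of -1.21. In border zone 2 against the remote zone it had 0.59 at 3 dpi and -3.40 and -1.25 at 5 dpi, a gap between the mean at 5 dpi and 3 dpi of -2.92, and in the rim against border zone 2 -0.34 at 3 dpi and 2.31 and 2.14 at 5 dpi, a gap between the mean at 5 dpi and 3 dpi of 2.57. The zone values of Adm rest on 1 to 48 UMIs.

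In the 5 dpi section labelled male, 623 spots of the matrix were not marked as under tissue and entered only the alternative that takes all spots of the matrix. Of the 9 members 3 were found in them above the level of the control section: Pgf at 27.4 CPM (20.9 to 35.2) against 4.81 CPM, Hif1a at 118 CPM (105 to 134) against 32.9 CPM and Ndrg1 at 48.9 CPM (40.2 to 59) against 29.7 CPM in the control, with exact Poisson 95% intervals for counting error only. Under the tissue of the same section these 3 were at 25, 104 and 51.7 CPM. The other 6 were at values below the control, among them Vegfa at 48 against 131 CPM and Egln1 at 73.6 against 229 CPM. Where these spots lay in relation to the tissue was not tested.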

How the results depend on the processing

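The 5 falls and 3 rises of members between muscle-poor and muscle-rich spots kept their direction and their call under DESeq2 and the other alternatives, apart from Ndrg1 without the 5 dpi section labelled male. The falls of Vegfb did so in 6 of the 7 comparisons, and between lower and upper intermediate spots in all but the fits with limits of 0.2, 0.4 and 0.6 and without the section block. Of the member fold changes under an alternative, 582 kept direction and side of the threshold, 39 lost the call, 18 gained it and 27 changed sign, all of the last in fits that were not called. No paired analysis was possible between groups, because the sections came from different hearts and the labels tie none of them together. The classes of a section were paired through the section as a block. Without that block the genes called were 142 between upper intermediate and muscle-rich spots (against 1029), 126 between border zone 2 and the remote zone (against 868), 415 from border zone 2 to the rim (against 1117) and 1283 from rim to core (against 2021), with 1 member in the first of these (against 2), 1 in the second (against 2), 3 in the third (against 3) and 4 in the last (against 6). Between lower and upper intermediate spots edgeR then called 0 genes and 0 members (against 564 and 3), with 1265 genes at an unadjusted p under 0.05, while DESeq2 with the block called 505. Class limits from the control gave 550 genes and 1 member between upper intermediate and muscle-rich spots. Limits of 0.2, 0.4 and 0.6 gave 318 genes and 0 members between lower and upper intermediate spots, and library size alone 1 member there. A low limit of 0.4 gave 1676 genes and 5 members from border zone 2 to the rim, and library size without the cardiomyocyte genes 1 member between border zone 2 and the remote zone.

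Leaving out 1 section at a time gave 356 to 740 genes and 1 member between upper intermediate and muscle-rich spots, 176 to 461 genes and 1 to 2 members between lower and upper intermediate spots, and 1597 to 2258 genes and 5 to 6 members between muscle-poor and lower intermediate spots. By zone it gave 329 to 660 genes and 1 to 2 members for border zone 2 against remote, 512 to 835 genes and 2 to 3 members for rim against border zone 2, and 1084 to 1974 genes and 3 to 6 members for core against rim. The cause was not tested, and these fits hold fewer samples. Library size alone widened the excess of higher calls between muscle-poor and muscle-rich spots to 5379 higher and 1870 lower (against 3241 higher and 2853 lower). It turned the balance elsewhere: 890 higher and 372 lower at the upper intermediate step (against 386 higher and 643 lower), 264 higher and 248 lower at the next (against 203 higher and 361 lower) and 1936 higher and 1189 lower at the last (against 1210 higher and 1559 lower). By zone the same scaling gave 739 higher and 296 lower for border zone 2 (against 367 higher and 501 lower), 720 higher and 490 lower for the rim (against 440 higher and 677 lower) and 1266 higher and 1018 lower for the core (against 723 higher and 1298 lower).

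Signs changed as follows. Between upper intermediate and muscle-rich spots Pgf was -0.11 with all spots under tissue, Egln3 0.15 with library size alone and 0.11 without the cardiomyocyte genes in it, and Bnip3 0.065 and 0.017 under the same settings. Leaving out a section gave ranges there of -0.30 to 0.50 for Pgf, -0.31 to 0.22 for Egln3, -0.24 to 0.043 for Bnip3 and -0.015 to 0.44 for Ndrg1. Between lower and upper intermediate spots Pgf was -0.26 with limits of 0.2, 0.4 and 0.6, and Adm -0.098 with all spots under tissue. Control limits gave -0.84 for Adm, 0.23 for Hif1a and 0.0015 for Egln3, and leaving out a section -0.13 to 0.50 for Adm and -0.38 to 0.053 for Hif1a. For Adm between muscle-poor and lower intermediate spots that range was -0.36 to 0.38. For border zone 2 against remote, Pgf was -0.060 with all spots under tissue, and the ranges were -0.12 to 0.54 for Pgf and -0.55 to 0.010 for Egln3. For core against rim, Adm was 0.068 with a low limit of 0.4, and Ndrg1 was 0.13 with library size alone, 0.10 without the cardiomyocyte genes in it, 0.040 without the filter on low counts, 0.018 without the section block and -0.15 to 0.20 without 1 section. In whole sections the log2 ratio of the section labelled male to the control was 0.20 for Egln3 over all UMIs, 0.52 for Egln3 per spot and 0.27 for Bnip3 per spot. At 3 dpi Egln3 was 0.13 over all UMIs and 0.29 per spot (against -0.27). Adm over all UMIs was 0.083 at 3 dpi, 0.24 in the section labelled female and 0.67 in that labelled male, where the interval then excluded 0, and per spot 0.25, 0.64 and 0.99 (against -0.31, -0.29 and 0.15). In muscle-rich spots Vegfb per spot was 0.10 in the section labelled female and 0.15 in that labelled male (against -0.18 and -0.30), a setting chosen after seeing the data. Depth limits Adm and Pgf most, with at most 89 UMIs of Adm in a section and at most 20 of Pgf in a muscle-rich class.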
